A study of Mus musculus with 40 samples.

Results

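Balb/c-1, by its label the first passage of the YUMM1.7 melanoma through Balb/c mice, was compared here with N2.3, the passage that the labels list just before it. The comparison takes 7 of the 40 libraries of the series, all those that the labels assign to these passages: 4 Balb/c-1 tumours (A to D) and 3 N2.3 tumours (A to C). YUMM1.7 is a cell line from a C57BL/6 mouse melanoma that carries an activating Braf mutation, and all 7 libraries come from it. Tumours were dissociated, the cells were cultured for 1 to 3 passages, and poly(A) RNA was sequenced. The letters name different tumours of a passage. Balb/c is an inbred strain with another set of histocompatibility genes than C57BL/6, and the sources used here do not say what N2 stands for or give the age and sex of the hosts. Each passage was done once. The p-values therefore measure only how much libraries of the same group differ. In the fits that spread was taken over all 40 libraries. These include the YUMM1.7 cultures and a repeat set that, by its labels, holds the Balb/c-2 tumours again and was counted as separate. The step in passage number and the change of host cannot be told apart. The series was sequenced in more than one batch, and the labels do not assign these 7 libraries to one, so a batch and the passage cannot be told apart either.

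The measurement is the number of reads at each annotated repeat copy, divided by the authors by a factor for each library, and called signal below. Repeat copies are the remains of elements that spread by copying themselves: retroelements such as endogenous retroviruses (LTR elements), L1 (LINE) and the short B1 and B2 elements (SINE), and DNA transposons. Most transcribed copies lie inside the exons or introns of ordinary genes and are carried along in their RNA, so a read at such a copy cannot be told apart from a read of the host gene. Endogenous retroviruses such as VL30 and intracisternal A particles (IAP) can also be transcribed from their own LTR promoters. They are usually held silent by DNA and histone methylation. Signal was therefore read at 3 levels: single copies (loci), all copies of a repeat name (subfamilies), and the exon copies of a gene (host genes). A host gene's signal is not its whole expression.

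Reads recovered in repeat copies were 1821695 to 2342103 in Balb/c-1 and 2272989 to 2507112 in N2.3. One library, N2.3 C, stood apart from the other 6. Over the exon copies of whole chromosomes, its median log2 signal, relative to its median chromosome and to the mean of all 40 libraries, was 0.44 higher on chromosome 1. It was lower on chromosome 15 (-0.48), chromosome 12 (-0.36), chromosome 13 (-0.27) and chromosome 16 (-0.26). On chromosomes 1, 12, 13, 15 and 16 these values lay outside the range of the 33 libraries of the other groups. By smaller margins N2.3 C was also outside that range on chromosomes 4, 5, 7, 9 and 17. The 4 Balb/c-1 tumours lay between 0.07 and 0.28 on chromosome 15 and no higher than 0.05 on chromosome 1. The share of signal in introns was highest in N2.3 C (26.6%) and in Balb/c-1 B (24.6%), and was 18.4% to 19.96% in Balb/c-1 A, C and D and 22.2% to 22.5% in N2.3 A and B. Counts below are therefore also given without N2.3 C.

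**Figure D1:**
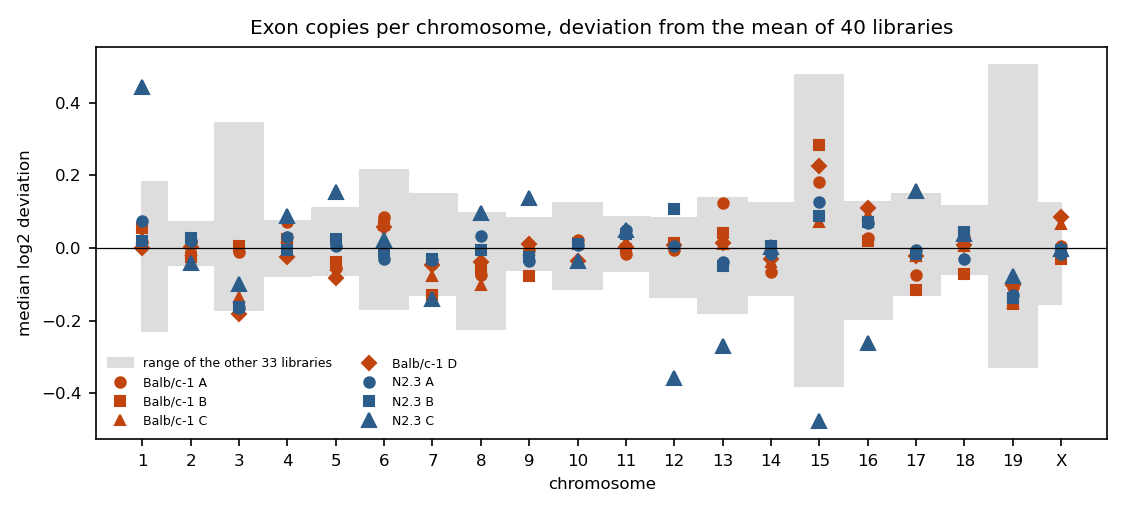
Median log2 deviation of exon repeat copies on each chromosome (horizontal axis) from the mean of 40 libraries, for the 4 Balb/c-1 tumours, the 3 N2.3 tumours and, in grey, the range of the other 33 libraries. N2.3 C lies farthest outside the grey range on chromosomes 1, 12, 13, 15 and 16, and the Balb/c-1 tumours lie close together on most chromosomes.

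The exon copies of markers of other cell types were nearly empty in all 7 libraries. Ptprc, the pan-leukocyte marker, and the macrophage genes Adgre1, Itgam and Tyrobp were at 0 in every library, as was the endothelial gene Pecam1. The summed T cell markers (5 of 10 listed genes have an exon copy) reached at most 2.08. The summed macrophage markers (6 of 11) were 23.1 to 36.9 in Balb/c-1 and 13.6 to 19.5 in N2.3, nearly all of it Cd14. In bulk samples, fewer cells of a type and less RNA per cell cannot be told apart. The fibroblast list held signal in both groups, almost wholly from the growth factor receptors Pdgfra and Pdgfrb. Of the melanocyte list, the pigment genes Tyr and Mlana were at 0 in all 7 libraries and Gpnmb was at 42.4 to 72.6. The labelled melanoma identity therefore rests on the labels and not on pigment genes in these files.

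Of 33215 tested loci, 732 were called, 303 higher and 429 lower in Balb/c-1 (limma, Benjamini-Hochberg adjusted p under 0.05). That is 2.2% of the tested loci, 0.912% higher and 1.29% lower. In 669 of the 732 called loci the 4 Balb/c-1 and 3 N2.3 tumours did not overlap. At the level of host genes, 534 of 7399 were called (7.22%), 263 higher (3.55%) and 271 lower (3.66%), and the groups did not overlap in 480 of these. Over all 7399 host genes, 9.26% did not overlap with Balb/c-1 higher and 11.4% with Balb/c-1 lower. That share was not taken for loci. Calls and overlap come from the same values, so the overlap adds no support to the calls. Of 1004 subfamilies, 32 were called (3.19%), 15 higher (1.49%) and 17 lower (1.69%). The split by direction depends on the scaling. With TMM factors in place of the deposited ones the median log2 fold change over loci moved from -0.17 to 0.01, and the calls were 470 higher and 247 lower loci, 400 higher and 139 lower host genes, and 98 higher and 12 lower subfamilies. The counts also depend on single tumours. Loci called were 458 without N2.3 A, 487 without N2.3 B, 313 without N2.3 C, 358 without Balb/c-1 A and 375 without Balb/c-1 C. Host genes called were 188 without N2.3 C, 282 without Balb/c-1 A and 299 without Balb/c-1 C. Subfamilies called were 21 without N2.3 A, 18 without N2.3 B, 21 without Balb/c-1 A and 18 without Balb/c-1 C.

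Of the 732 called loci, 416 were in exons, 220 in introns and 96 between genes, and the 636 genic ones fell into 512 host genes. Copies between genes made up 13.1% of the called and 10.5% of the tested loci, and intron copies 30.1% and 42.2%. Higher calls were most frequent in 5′ UTRs (3.31% of 513 tested copies, with 0.585% lower), followed by 3′ UTRs (1.71% of 8590, with 1.27% lower). Lower calls were most frequent between genes (1.63%, with 1.12% higher) and in noncoding exons (1.52%, with 0.835% higher). In introns 1.24% of 14031 copies were lower, near the share over all loci, and 0.328% were higher, that is 174 against 46 copies. The median log2 fold change was -0.04 in 3′ UTRs and -0.31 in introns. The intron split depended on the settings. It was 109 lower and 78 higher with TMM scaling, and 59 lower and 25 higher without N2.3 C, which has the highest intron share. With the intron share of each library as a covariate it was 54 lower and 52 higher, with a median log2 fold change of -0.05. Without N2.3 C the 5′ UTR calls were 1 higher and 0 lower.

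**Figure D2:**
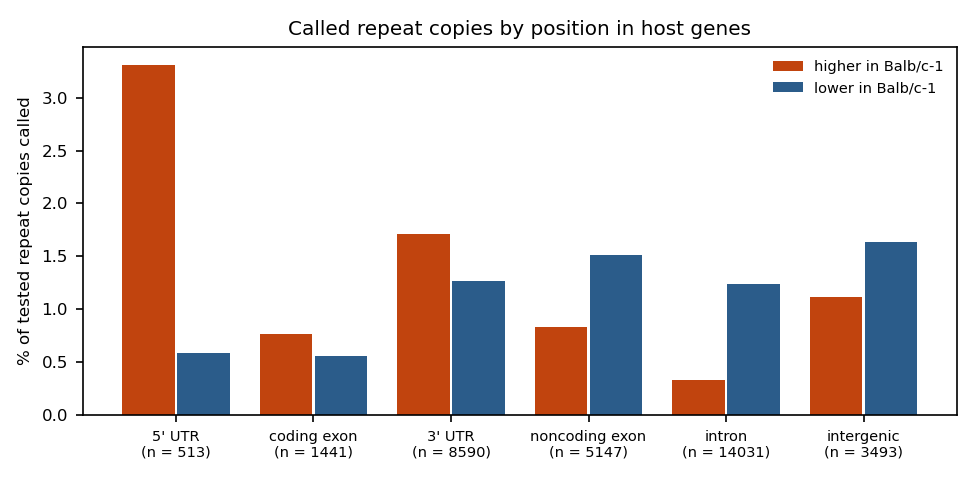
Percentage of tested repeat copies called higher (orange) or lower (blue) in Balb/c-1 than in N2.3 (limma, adjusted p under 0.05) by position in host genes, with the number tested under each label. Higher calls reach 3.31% in 5′ UTRs and 0.328% in introns, and lower calls range from 0.555% in coding exons to 1.63% between genes.

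The host gene with the highest log2 fold change was P2ry14, a receptor for UDP-glucose. Its signal was 30.4, 105, 43.2 and 68.7 in Balb/c-1 A to D against 0, 0 and 0.757 in N2.3 A to C. The groups did not overlap (log2 fold change 5.55, SE 0.97, limma adjusted p = 0.00064), and the signal sat in an L1_Mur3 copy of its 5′ UTR at chr3:59116228-59116343 (mm10). In the other 9 groups P2ry14 reached at most 63.9, and at most 15.1 in YUMM1.7 cells, F0, F1, F2, N2.1 and N2.2. Acpp, which encodes prostatic acid phosphatase, was at 148, 83.0, 28.8 and 99.9 against 0.847, 6.31 and 0 (5.04, SE 0.86, adjusted p = 0.00054). Its signal came from 3 copies in the 3′ UTR, among them B4A at chr9:104289587-104289847. Adgrl3, a latrophilin adhesion receptor, was at 14.7, 22.95, 16.3 and 24.97 against 2.54, 0.789 and 0 (3.46, SE 0.65, adjusted p = 0.00128). P2ry14, Acpp and Adgrl3 stayed called when any 1 of the 7 tumours was left out. Unlike P2ry14, Adgrl3 had more signal in the earliest groups than in Balb/c-1. Its means were 78.9, 49.8, 74.0 and 67.7 in YUMM1.7 cells, F0, F1 and F2, and 3.5 and 1.6 in N2.1 and N2.2.

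Other genes in the upper set were uneven within Balb/c-1. Bche, butyrylcholinesterase, was at 382 and 185 in Balb/c-1 A and C but at 20.3 and 24.97 in B and D, against 7.62, 3.15 and 0 in N2.3 (4.59, SE 1.18, adjusted p = 0.0155). Most of it lay in a MERVL_2A-int copy in its 3′ UTR (chr3:73636117-73638340). Ctla2a, a cysteine protease inhibitor, was at 176 in Balb/c-1 A and between 5.30 and 22.9 in the other 3 (3.26, adjusted p = 0.0134). Itgbl1, an integrin-like secreted protein, was at 2485, 1610.1, 1580.4 and 1102 against 598, 659 and 11.4. Its log2 fold change of 3.26 (adjusted p = 0.00505) became 1.37 without N2.3 C (adjusted p = 0.107). Bmf, a pro-apoptotic member of the Bcl-2 family, was at 38.4 to 65.6 against 0.847, 1.58 and 31.8 (3.21, adjusted p = 0.0169), with N2.3 C the highest of its group. Tmod2, an actin-capping tropomodulin, was at 32.7 to 63.6 against 0 to 6.31 (3.76, adjusted p = 0.0134). Tmod2, Bmf and Itgbl1 also had signal in YUMM1.7 cells, F0, F1 and F2. Group means there were 34.1 to 63.7 for Tmod2, 21.1 to 48.4 for Bmf and 859 to 2228 for Itgbl1. In N2.1 and N2.2 the means were 2.21 and 1.10 for Tmod2, 2.92 and 2.42 for Bmf, and 1501 and 651 for Itgbl1.

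Several of these calls were lost when 1 tumour was left out, which also leaves fewer tumours to test. Over all such fits the log2 fold change was at least 3.73 for Bche, 2.87 for Tmod2, 2.44 for Bmf and 2.26 for Ctla2a. Bche was lost without N2.3 C, Balb/c-1 A or Balb/c-1 C (adjusted p 0.0527 to 0.124), and Ctla2a without N2.3 C or Balb/c-1 A (0.113 and 0.0765). Tmod2 was lost without N2.3 A (0.0981), and Bmf without N2.3 A or N2.3 B (0.113 and 0.0864). The RNA gene 5430421F17Rik (47.9 to 281 against 2.27 to 28.4, log2 fold change 3.55, adjusted p = 0.00788) was lost without N2.3 C (0.0861). Gm7609 (69.7 to 311 against 1.51 to 14.99, log2 fold change 3.99, adjusted p = 0.00486) was lost without N2.3 C (0.0632), as was 9930111J21Rik1 (100.9 to 488 against 3.03 to 69.4), whose log2 fold change went from 3.202 (adjusted p = 0.0176) to 1.85 (0.235). For these 3 genes N2.3 C had the lowest signal of all 7 tumours.

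**Figure D3:**
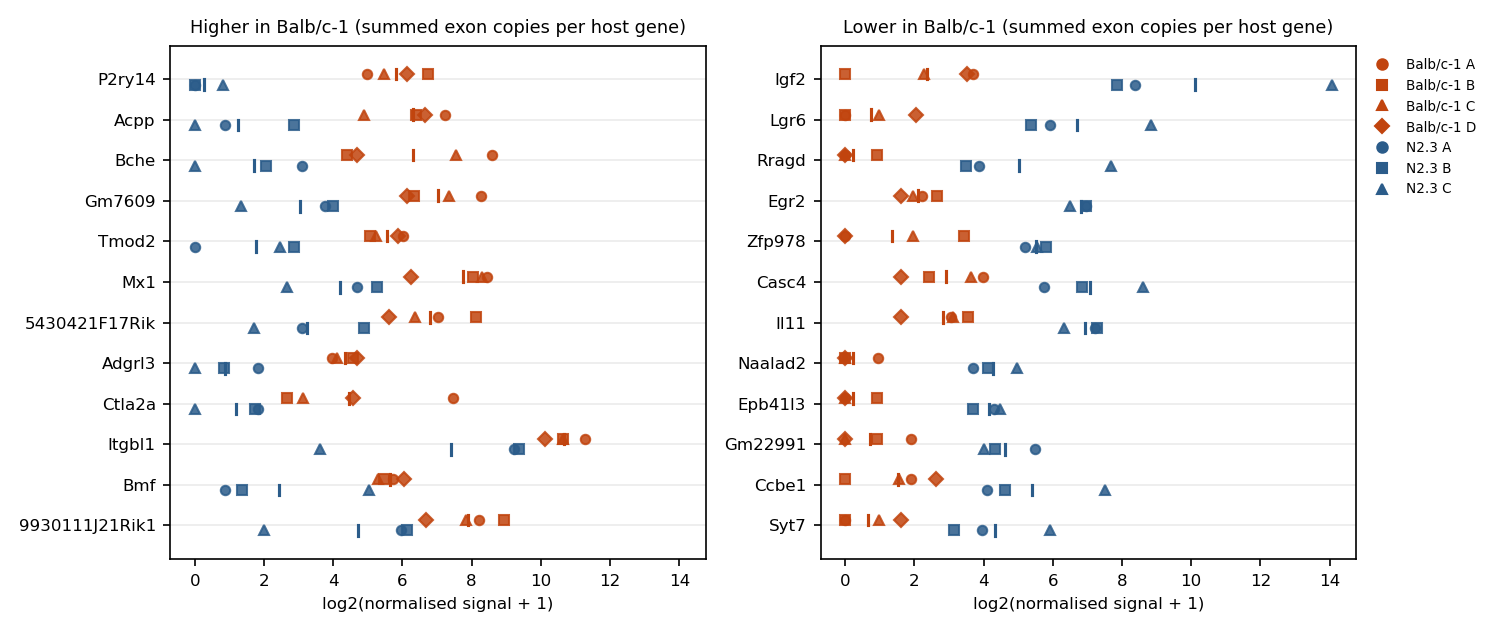
Signal of the 12 host genes with the highest and the 12 with the lowest log2 fold change among called genes whose groups do not overlap, on a log2(signal + 1) axis. Points are tumours (orange, Balb/c-1; blue, N2.3), bars are group means of the log2 values, and N2.3 C (blue triangle) is the highest N2.3 tumour for Igf2 and the lowest for Itgbl1.

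Of 50 tested genes of the interferon response, 5 were called higher in Balb/c-1 and 0 lower, and 47 had a positive log2 fold change. Interferons act through the JAK-STAT pathway, whose transcription factor complex binds the interferon-stimulated response element, and they induce antiviral effectors such as Mx1, the Ifit and Oas proteins and the guanylate-binding proteins (Gbp). The list holds 71 genes, of which 56 have an exon copy and 50 were tested. In comparison, 3.55% of all tested host genes were called higher and 3.66% lower. The median log2 fold change over the 50 was 1.25 beside -0.06 over all host genes (1.45 beside 0.13 with TMM). In 19 of the 50 the groups did not overlap with Balb/c-1 higher, and in 1 with Balb/c-1 lower. Over all 7399 genes these shares were 9.26% and 11.4%.

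The response was not even across the Balb/c-1 tumours. The signal summed over the list was 55312, 33469, 42450 and 15760 in Balb/c-1 A to D and 13714, 14577 and 16551 in N2.3 A to C. Relative to the mean of the N2.3 tumours, the median member was 1.99, 1.34 and 1.69 log2 units higher in Balb/c-1 A, B and C. It was 0.15 higher in Balb/c-1 D, where the N2.3 tumours themselves lay at -0.08 to 0.04. More than 1 log2 unit above the N2.3 mean were 45 members in Balb/c-1 A, 30 in B, 40 in C and 9 in D. Without Balb/c-1 D 6 members were called higher, without N2.3 C 1 was, Ifit2, and with the intron share as a covariate 2 were. Ptprc was at 0 in all 7 libraries, and the summed macrophage markers, nearly all Cd14, were at 23.1 to 36.9 against 13.6 to 19.5. Their part in these values was not tested.

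**Figure D4:**
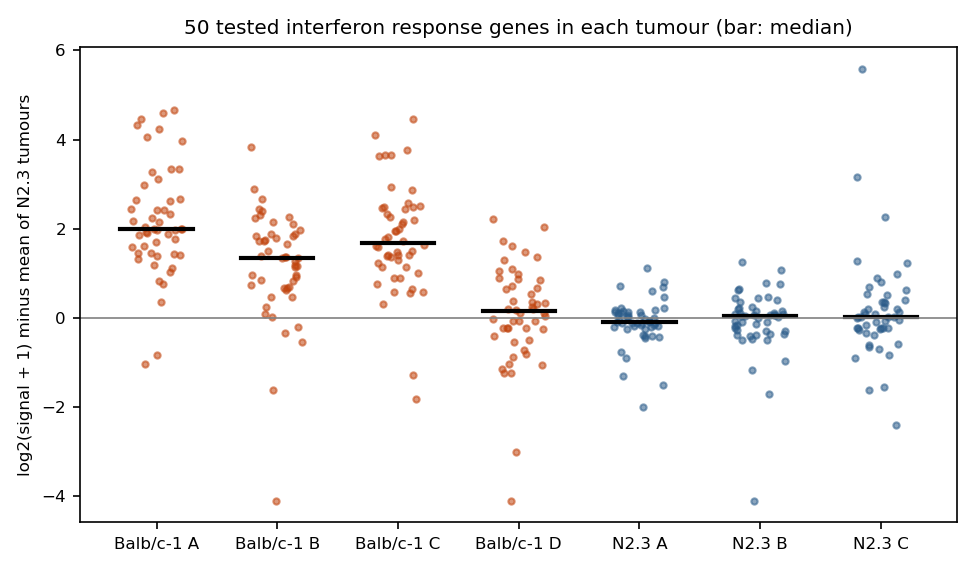
Each point is 1 of the 50 tested interferon response genes, plotted as log2(signal + 1) minus the mean of the 3 N2.3 tumours, for each tumour (orange, Balb/c-1; blue, N2.3), with the median as a black bar. The medians are 1.99, 1.34 and 1.69 in Balb/c-1 A, B and C, and 0.15 in Balb/c-1 D.

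Among the antiviral effectors, Mx1, a dynamin-like GTPase that blocks influenza and other viruses, was at 348, 260.4, 317 and 74.9 in Balb/c-1 against 24.6, 37.9 and 5.30 in N2.3 (log2 fold change 3.56, SE 1.13, limma adjusted p = 0.0487). Balb/c-1 D was the lowest of its group but above all N2.3 tumours. Ifit2, which binds viral RNA and interferes with translation, was at 767, 543, 939 and 427 against 153, 146 and 385 (1.63, SE 0.38, adjusted p = 0.00862), and stayed called with any 1 tumour left out. In the other groups its mean ran from 336 in F0 to 756 in Balb/c-2, with 507 in YUMM1.7 cells and 619 in F2. N2.3, at a mean of 228, was thus the lowest of the 11 groups for Ifit2. Gbp5, a GTPase that acts on intracellular pathogens and the inflammasome, was at 218, 42.4, 135 and 32.3 against 8.47, 9.47 and 9.09 (3.02, SE 0.96, adjusted p = 0.0484). Slfn9, of the Schlafen family, was at 1986, 1525, 2718 and 1769.9 against 1041, 1044 and 824 (1.02, SE 0.30, adjusted p = 0.0351). N2.3 was also the lowest group for Slfn9, at a mean of 969.8, where groups outside this comparison had means of 1323 to 1978. Adar, the RNA editing enzyme with an interferon-induced isoform, was at only 18.4, 17.7, 24.98 and 8.32 against 6.78, 2.37 and 3.03 (1.87, SE 0.48, adjusted p = 0.016). Its mean was 3.29 in YUMM1.7 cells and 8.13 to 18.9 in the other groups outside this comparison. For Mx1 and Gbp5 the means were at most 61.4 and 42.4 in YUMM1.7 cells, F0, F1, F2, N2.1, N2.2 and CBA. In Balb/c-2 they were 279 and 180. The Mx1 call was lost without any 1 of 6 tumours, all but Balb/c-1 D (adjusted p 0.0506 to 0.244). Gbp5 and Slfn9 were lost without N2.3 A, B or C or Balb/c-1 A or C (0.0968 to 0.146 and 0.0588 to 0.156), and Adar without N2.3 B, N2.3 C or Balb/c-1 C (0.0588 to 0.0802).

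Members that did not pass the test had large folds and a large spread. Cmpk2, a mitochondrial nucleotide kinase induced by interferon, was at 848, 128, 769.6 and 162 against 39.8, 46.5 and 21.2 (3.29, SE 1.12, adjusted p = 0.065). Isg15, a ubiquitin-like protein, was at 327, 158, 161 and 47.9 against 24.6, 34.7 and 41.6 (2.07, SE 0.86, adjusted p = 0.14). Ifit1 was at 3172, 1795, 2709 and 801 against 365, 387 and 878, so Balb/c-1 D fell among the N2.3 tumours. The same held for Oasl2 (691 in Balb/c-1 D against 678 to 768). Eif2ak2 (PKR, which halts translation on sensing viral RNA) and Trim25 (an activator of RIG-I) had high levels and small differences, with log2 fold changes of 0.55 and 0.40. Gbp4 and Gbp8 were highest in N2.3 C (786 and 823), where the other 6 tumours had 65.2 to 443 and 0 to 7.37. The receptor ligand Cd274 (PD-L1) was at 14.6 to 46.1 against 31.6 to 37.9 (-0.13, SE 0.59).

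Promoter sequences were examined because the interferon-stimulated response element lies close to the start of many of these genes. The letters searched were GAAA, any 2 bases and again GAAA, on either strand, in windows of 300 bases (250 before and 50 after the start) from RefSeq, GRCm38.p6. Of 32851 such promoters, 3.44% hold a match. An entry was found for 5442 of the 7399 tested host genes, and 3.95% of these had a match in at least 1 of their promoters. The share was 8.29% (16 of 193) among genes called higher, 4.64% (9 of 194) among genes called lower and 3.76% (190 of 5055) among the rest. Of the tested interferon response genes with an entry, 50% (17 of 34) had a match. Of the 5 called ones, Gbp5 and Slfn9 had a match, Ifit2 and Adar had an entry without a match, and Mx1 had no entry. A match is a description of letters and was not tested as a site. The bases upstream of the start of 5 called genes are shown, 5′ to 3′ on the gene's strand, with the matching letters in capitals: Gbp5 and Slfn9 of the list, and Trim30d, Gm12185 and Parp11, which were chosen after their values were seen.
Gbp5, chr3:142496684-142496933, plus strand: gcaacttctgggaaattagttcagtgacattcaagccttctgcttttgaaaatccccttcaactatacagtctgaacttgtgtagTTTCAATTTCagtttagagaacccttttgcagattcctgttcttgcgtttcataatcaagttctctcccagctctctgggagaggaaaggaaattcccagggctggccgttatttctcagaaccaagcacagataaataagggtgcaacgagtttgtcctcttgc
Slfn9, chr11:82991831-82992080, minus strand: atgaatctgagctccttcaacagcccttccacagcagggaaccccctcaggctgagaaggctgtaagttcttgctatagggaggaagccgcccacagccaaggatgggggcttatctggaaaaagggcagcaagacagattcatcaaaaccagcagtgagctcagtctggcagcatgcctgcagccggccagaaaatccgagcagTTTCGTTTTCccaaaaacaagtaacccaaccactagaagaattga
Trim30d, chr7:104507850-104508099, minus strand: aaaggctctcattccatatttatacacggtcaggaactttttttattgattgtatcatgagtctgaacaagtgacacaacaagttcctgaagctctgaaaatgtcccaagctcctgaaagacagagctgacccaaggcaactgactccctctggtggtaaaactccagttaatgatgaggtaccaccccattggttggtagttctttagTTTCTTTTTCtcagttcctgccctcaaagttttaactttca
Gm12185, chr11:48927183-48927432, minus strand: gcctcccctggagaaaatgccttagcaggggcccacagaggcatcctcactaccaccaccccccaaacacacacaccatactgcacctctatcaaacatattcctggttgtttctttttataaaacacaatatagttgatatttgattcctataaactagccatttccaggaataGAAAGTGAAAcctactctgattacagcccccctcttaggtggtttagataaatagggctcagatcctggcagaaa
Parp11, chr6:127446590-127446839, plus strand: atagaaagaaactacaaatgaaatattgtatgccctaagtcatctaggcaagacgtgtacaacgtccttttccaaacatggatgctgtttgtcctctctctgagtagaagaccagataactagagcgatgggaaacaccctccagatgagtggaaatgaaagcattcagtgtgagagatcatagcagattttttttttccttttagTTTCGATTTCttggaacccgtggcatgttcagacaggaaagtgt
The match ends 155 bases before the start in Gbp5, 65 in Gm12185, 35 in Slfn9, 34 in Parp11 and 31 in Trim30d. Trim30d, a tripartite motif protein, was at 589.7, 403, 460.2 and 125 against 112, 93.1 and 15.1 (log2 fold change 2.63, SE 0.75, adjusted p = 0.0289). Gm12185 was at 68.2, 84.7, 70.1 and 28.1 against 11.9, 9.47 and 2.27 (2.96, adjusted p = 0.0297). Parp11, a mono-ADP-ribosyltransferase, was at 338, 177, 239 and 118 against 99.1, 94.7 and 94.6 (1.07, adjusted p = 0.036). In each of the 5 genes Balb/c-1 D had the lowest or second lowest signal of its group. Matches also occurred in promoters of called genes outside this response, such as Adgrl3.

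Among single copies in interferon-related genes, 2 of the 10 highest loci lay in Ifi213, a member of the p200 family of interferon-inducible genes. An ERVB2_1-I_MM copy in its coding exon (chr1:173580639-173582295) was at 83.8, 15.01, 35.5 and 6.24 against 0, 1.58 and 0 (log2 fold change 4.16, SE 0.93, adjusted p = 0.0118). A B4A copy in its 3′ UTR (chr1:173593392-173593689) was at 78.3, 30.9, 60.5 and 5.20 against 0, 3.15 and 0.757 (4.01, SE 1.00, adjusted p = 0.0248). Balb/c-1 A was the highest and D the lowest tumour of the group at both. The first call was lost without N2.3 C or Balb/c-1 A (adjusted p 0.0594 and 0.0573), and the second without N2.3 A, N2.3 C, Balb/c-1 A or Balb/c-1 C (0.0739 to 0.103).

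The host gene with the lowest log2 fold change was Igf2, the imprinted gene for insulin-like growth factor II. Its 1 exon copy, an RLTR20A4 element in the 3′ UTR at chr7:142652668-142652999, was at 11.98, 0, 3.84 and 10.4 in Balb/c-1 against 333, 231 and 17104 in N2.3 (log2 fold change -7.73, SE 1.11, limma adjusted p = 4.6e-05). N2.3 C had by far the most signal, and the gene was also called without it (-5.75, adjusted p = 0.00223). A second annotated gene shares the same exon copy, so the reads are not certain to be Igf2. In the other groups Igf2 was at 0 to 17.4 apart from N2.2 (13.8 to 125), so N2.3 was the group with the highest level and Balb/c-1 lay in the range of the rest. Lgr6, an R-spondin receptor of the Wnt pathway, was at 0, 0, 0.961 and 3.12 against 59.3, 40.2 and 454 (-5.95, SE 1.10, adjusted p = 0.00114). In the other groups Lgr6 reached at most 92.9, in F0 (mean 47.8). That lay above N2.3 A and B, and only N2.3 C was higher.

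Egr2, an immediate early transcription factor, was at 3.69, 5.30, 2.88 and 2.08 against 123, 124 and 90.1 (-4.69, SE 1.10, adjusted p = 0.00862), from an MMSAT4 copy in its coding exon (chr10:67540644-67540777). Il11, a cytokine of the IL-6 family, was at 7.37, 10.6, 7.69 and 2.08 against 147, 155 and 79.5 (-4.10, SE 0.72, adjusted p = 0.00064). Casc4, a Golgi membrane protein, was at 14.7, 4.41, 11.5 and 2.08 against 52.5, 114 and 392 (-4.15, SE 0.57, adjusted p = 2.4e-05). Casc4 was also low in both Balb/c-2 sets (2.66 to 12.1) and CBA (0 to 4.185) and was 189 to 704 in YUMM1.7 cells, F0, F1 and F2. Zfp978, a zinc finger protein, was at 0 to 9.71 against 35.6 to 55.2 (-4.17, adjusted p = 0.00061). Epb41l3, a membrane skeleton protein, was at 0, 0.883, 0 and 0 against 18.6, 11.8 and 21.2 (-3.92, adjusted p = 7.2e-06). Rragd, a GTPase of the mTORC1 pathway, was at 0, 0.883, 0 and 0 against 13.6, 10.3 and 203 (-4.78, adjusted p = 0.00021). These 6 genes stayed called with any 1 tumour left out. Where nearly all Balb/c-1 tumours were at 0, the fitted value depends on the pseudocount and is not a fold of expression.

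The rest of the lowest set had little signal. Gm22991 was at 0 to 2.76 against 15.1 to 44.1 (-3.90, adjusted p = 0.00774). Naalad2, a peptidase, was at 0 to 0.921 against 11.9 to 30.3 (-4.03, adjusted p = 0.0078). Syt7, a vesicle calcium sensor, was at 0 to 2.08 against 7.89 to 59.8 (-3.69, adjusted p = 0.0133). Ccbe1, a secreted factor of lymphatic growth, was at 0 to 5.20 against 16.1 to 179 (-3.88, adjusted p = 0.00556). Without N2.3 C, which had the highest signal in the last 3, Naalad2 (adjusted p = 0.0518), Ccbe1 (0.0856) and Syt7 (0.126) were no longer called.

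Among the 10 lowest loci, a PB1D10 copy in an intron of Tbx3os1, the antisense neighbour of the Tbx3 transcription factor gene, was at 1.84, 0, 0 and 0 against 23.7, 22.9 and 37.1 (chr5:119570789-119570892, -4.44, adjusted p = 0.0001). No source used here says whether counting used strand, so reads of an antisense gene and of its partner cannot be told apart.

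The remaining gene lists had few calls, to be read beside 3.55% higher and 3.66% lower over all host genes. Of 18 tested genes of MHC class I presentation 0 were higher and 1 was lower, with a median log2 fold change of 0.00. The lower one was H2-Q7, a non-classical class I gene, at 0.921, 0, 0 and 2.08 against 10.2, 20.51 and 11.4 (-3.20, SE 0.84, adjusted p = 0.017). Its call was lost without N2.3 B, N2.3 C or Balb/c-1 C (0.0515 to 0.0623), and related class I genes can share reads. The listed class I genes with the highest levels also had small differences: H2-T22 0.43, H2-Q4 -0.44 and Tapbp, a chaperone of peptide loading, 0.03 on the log2 scale. H2-D1, a classical class I gene, was at 8776, 4634, 4284 and 3001 against 5903, 7480.3 and 3998, with overlapping groups. Of 3 tested class II genes none was called, the regulators Rfx5, Rfxank and Rfxap.

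Of 34 tested genes of retroelement silencing, 3 were called higher (Adar, Cbx5 and Pphln1) and 0 lower, with a median of -0.10 (0.10 with TMM). Cbx5, the heterochromatin protein HP1 alpha, was at 4165, 4222, 5074 and 6597 against 3901, 3353 and 2105 (0.71, SE 0.21, adjusted p = 0.035). Pphln1, a subunit of the HUSH silencing complex, was at 975, 988, 1048 and 1189 against 961, 887 and 401 (0.58, SE 0.17, adjusted p = 0.0322). Both lie on chromosome 15, which was low in N2.3 C, and without that tumour Cbx5 went to 0.45 (adjusted p = 0.288) and Pphln1 to 0.18 (0.518). Cbx5 was also lost without Balb/c-1 C or D, and Pphln1 without Balb/c-1 A, C or D (adjusted p of at least 0.0503). Samhd1 (log2 fold change 0.60), a triphosphohydrolase that depletes nucleotides, and Zfp809 (-0.09), a zinc finger protein that recruits silencing to retroviruses, were among the highest of the list and were not called. Of 28 cell cycle genes 1 was lower, Cdk4, at 93.1, 83.0, 81.7 and 126 against 158, 179.8 and 199 (-0.91, adjusted p = 0.0285). It was not called with TMM (adjusted p = 0.062) or without N2.3 B, N2.3 C or Balb/c-1 A, B or C (0.0604 to 0.128). The proliferation genes Top2a (0.13) and Aurkb (0.04) were not called. Of 9 imprinted genes 1 was lower, Igf2, and Impact, a translation regulator, was at -0.54 and not called. None was called of 14 genes of hypoxia and glycolysis, 11 of dedifferentiation and mesenchymal state, and 5 of MAPK output. The hypoxia factor Hif1a was at 0.44 and the oxidase Ero1l at 0.98, Braf at -0.13 and the ERK target Etv1 at -0.16. Over the 14 genes of hypoxia and glycolysis the median was -0.37 (-0.17 with TMM), and only 4 had a positive log2 fold change. In 4 of the 14 the groups did not overlap with Balb/c-1 lower, and in 0 with Balb/c-1 higher. Over all host genes these shares were 11.4% and 9.26%. Without Balb/c-1 D, 2 of the 14 hypoxia and glycolysis genes were called higher. Tgfbr2, a TGF-beta receptor, was the nearest of the mesenchymal list, at 1512, 1104, 1159 and 1072 against 829, 849 and 459 (0.81, SE 0.26, adjusted p = 0.0516).

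Among subfamilies, 2 of the 5 of the retrovirus-like VL30 elements were called lower and 0 higher, beside 1.69% lower and 1.49% higher over all subfamilies. VL30 elements have lost their own protein genes and are packaged by other retroviruses. The internal part, MMVL30-int, was at 16296, 11121, 11828 and 10747 in Balb/c-1 against 36012, 38332 and 19961 in N2.3, and the groups did not overlap (log2 fold change -1.29, SE 0.37, limma adjusted p = 0.0435). Of 60 tested MMVL30-int copies 0 were higher and 10 lower, beside 0.912% and 1.29% over all loci, and without N2.3 C the count was again 10 lower. With TMM 5 were lower and the subfamily was not called (adjusted p = 0.0856). It was also not called without N2.3 A, N2.3 B, or Balb/c-1 B, C or D (0.0664 to 0.142). The LTR of the element, RLTR6_Mm, was at 203, 91.8, 63.4 and 97.8 against 624, 495 and 175, with N2.3 C below Balb/c-1 A (-1.86, SE 0.41, adjusted p = 0.00618). RLTR6_Mm was lost without N2.3 A (0.0885) or N2.3 B (0.0561). In the other groups the mean of MMVL30-int was 8508 in CBA, 13952 in F0 and 14651 in N2.1. It was 19616 to 27900 elsewhere, among them 23613 in Balb/c-2 and 23784 in its repeat set.

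The VL30 difference lay mostly in 2 copies between genes, which were looked up because they hold the largest shares. The copy at chr2:75638103-75642944 gave 34.6% of the MMVL30-int difference, at 3576, 3011, 1128 and 804 against 8741, 10053 and 7260.1 (-2.28, SE 0.64, adjusted p = 0.047). In the other groups its mean ran from 792 in CBA and 3238 in N2.1 to 12527 in Balb/c-2 and 13011 in its repeat set. The copy at chr11:86811739-86815896 gave 32.2%, at 3887, 1506, 1387 and 1166 against 11123, 10825 and 2290.3 (-1.89, SE 0.45, adjusted p = 0.0178). There N2.3 C lay below Balb/c-1 A. The LTR next to it, chr11:86815897-86816395, gave 89.7% of the RLTR6_Mm difference, at 139, 38.8, 26.9 and 37.5 against 526, 405 and 104 (-2.51, SE 0.50, adjusted p = 0.00463). The chromosome 2 call was lost with TMM (adjusted p = 0.0816) and without any N2.3 tumour or Balb/c-1 C or D (0.104 to 0.131), and the chromosome 11 copy without N2.3 A, N2.3 B, or Balb/c-1 C or D (0.0532 to 0.115). Another copy, on chromosome Y (chrY:40026614-40030456), was at 0, 1.77, 10.6 and 1.04 against 94.9, 22.1 and 68.9 (-4.24, adjusted p = 0.00684). The Y-linked gene Ddx3y varied within both groups, at 136, 60.03, 400 and 81.2 against 174, 165 and 444, and its part in that copy was not tested.

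**Figure D5:**
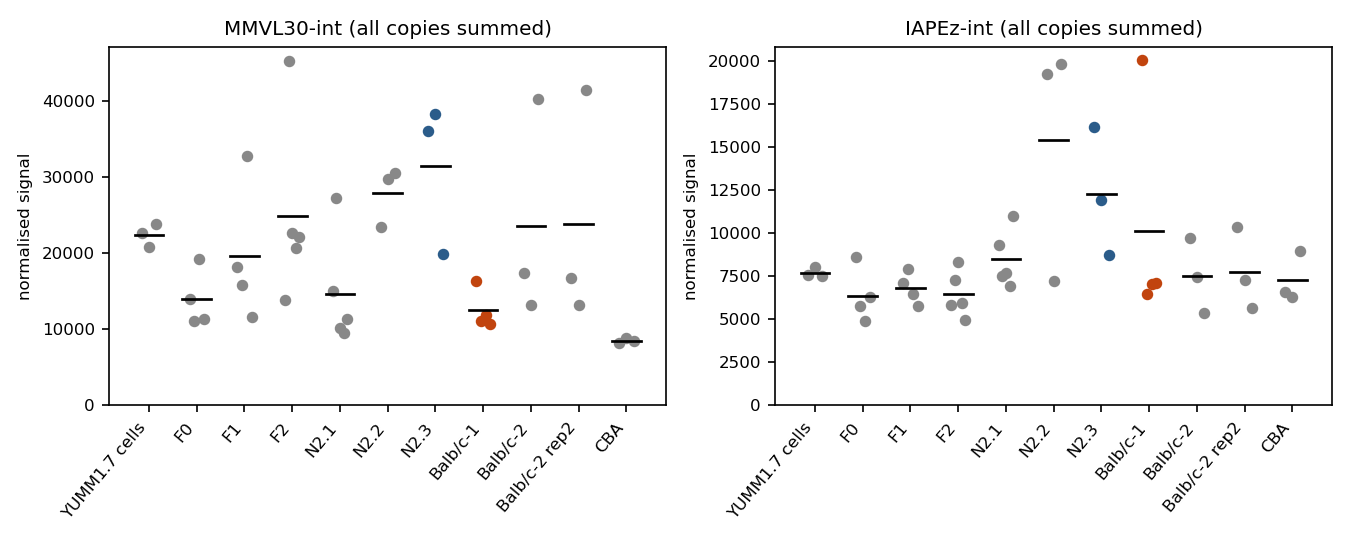
Summed signal of MMVL30-int (left) and IAPEz-int (right) in each library of the 11 groups (points) with the group mean (bar), Balb/c-1 in orange and N2.3 in blue. The 4 Balb/c-1 tumours lie at 10747 to 16296 for MMVL30-int, below all N2.3 tumours, and 1 Balb/c-1 tumour lies at 20058 for IAPEz-int while the other 3 lie at 6466 to 7082.

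IAPEz-int, the internal part of the most active IAP retroelements, was not called between the passages. It was at 20058, 6466, 7026 and 7082 against 16159, 11943 and 8764 (-0.41, SE 0.30, adjusted p = 0.484). Balb/c-1 A was thus above all N2.3 tumours and the other 3 below them. Of the difference between Balb/c-1 A and the mean of B to D, 21.7% and 19.9% came from a pair of adjoining copies in an intron of Wdr49. These copies were looked up after the tumour was seen to stand apart. The first, chr3:75348451-75351749, was at 2867, 2.65, 1.92 and 0 in Balb/c-1 A to D and at 1825, 1132 and 2.27 in N2.3 A to C. The second, chr3:75352188-75353268, was at 2628, 0, 0 and 0 against 1844, 968 and 3.03. The pair was thus high in 3 of the 7 tumours, 1 of Balb/c-1 and 2 of N2.3, and nearly empty in the others. Among the 33 libraries of other groups 7 had at least 100 at the first copy. Of 2917 IAPEz-int copies, 59 had at least 20 in Balb/c-1 A and under 5 in B, C and D. Of these 59, 28 had at least 20 in N2.3 A, 16 in N2.3 B and 1 in N2.3 C, where 104, 71 and 50 of all IAPEz-int copies did. Summed over the 59 copies the signal was 5247 in N2.3 A, 2934 in N2.3 B and 178 in N2.3 C. The highest library of the other groups was at 6478 in N2.2, 3001 in Balb/c-2 rep2, 2745 in Balb/c-2, 1863 in F1 and 1470.2 in N2.1, and at 285 or less in F0, F2, YUMM1.7 cells and CBA.

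Single IAP copies went both ways. An IAP1-MM_I-int copy on chromosome X (chrX:9328933-9332825, between genes) was at 146, 52.1, 68.2 and 153 against 13.6, 0.789 and 11.4 (3.7996, SE 0.79, adjusted p = 0.00553). It was lost without N2.3 B (0.0752). An IAPEz-int copy on chromosome 17 (chr17:33738034-33740257, chosen after its values were seen) was at 4.61, 7.06, 6.72 and 11.4 against 70.3, 48.9 and 42.4 (-2.72, SE 0.55, adjusted p = 0.0047). Of the 24 tested IAP subfamilies 1 was called higher, IAP1-MM_I-int (0.39, adjusted p = 0.0388), and 0 lower, beside 1.49% and 1.69% over all subfamilies. Next to it in level, IAPEY4_I-int was at 0.70 and not called. For IAP1-MM_I-int 87.0% of the difference came from a copy in the 5′ UTR of Gpbp1, and it was not called without N2.3 B, N2.3 C, or Balb/c-1 A, C or D (0.0537 to 0.268).

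MERVL-int, from an endogenous retrovirus transcribed in early embryos, was at 931, 1101, 883 and 1035 against 1420.0, 1287 and 2171 (-0.69, SE 0.17, adjusted p = 0.0141). The groups did not overlap, and the difference was spread over many of its 937 copies, the largest giving 4.43% of it. It was lost without N2.3 C (0.179) or Balb/c-1 C (0.0637). MuLV-int, the internal part of murine leukaemia proviruses, was at 0.21 and not called. RLTR4_MM-int, a retrovirus related to murine leukaemia virus, was at 7093, 8316, 8462 and 8135 against 8218, 8661 and 10789 (-0.20, SE 0.13, adjusted p = 0.434). The SINEs B1_Mm (-0.09, SE 0.06) and B2_Mm2 (-0.15, SE 0.09) were not called, and these 2 and RLTR4_MM-int turned positive with TMM (0.11, 0.05 and 0.01).

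Of the young L1 list, 19 subfamilies tested, 2 were higher and 0 lower (6 and 0 with TMM), where 1.49% of all subfamilies were higher and 1.69% lower, with a median of 0.12 (0.33 with TMM) beside -0.03 over all subfamilies (0.17 with TMM). L1MdFanc_I was at 5415, 7395, 5777 and 3464 against 2721, 2949 and 2058 (1.06, SE 0.28, adjusted p = 0.0292). Of its difference 33.002% came from a copy in the 3′ UTR of 9930111J21Rik2 and 27.3% from a copy in an intron of Olfr56. These 2 copies lie close together, at chr11:49016239-49019012 and chr11:49014140-49015825, and may not be independent. L1MdFanc_I was lost without N2.3 A, N2.3 C, or Balb/c-1 A, B or C (0.0547 to 0.128). L1MdF_III was at 10794, 8513, 8693 and 7934 against 6181, 6486 and 4543 (0.65, SE 0.16, adjusted p = 0.0115), 96.7% of it from a copy in a coding exon of Laptm4a. It was lost without N2.3 C or Balb/c-1 A (0.117 and 0.0547). Of the older L1 list (108 tested) 0 were higher and 3 lower (L1M6B, L1MC3 and L1M4a1), mainly from 3′ UTR copies in Tcaf1, Rgs17 and Sde2. This split turned with the scaling, to 14 higher and 1 lower with TMM, where L1MC3 and L1M4a1 were not called (adjusted p 0.205 and 0.235). The TMM counts of both L1 lists are to be read beside 98 higher and 12 lower of all 1004 subfamilies with TMM. L1M6B was lost without N2.3 A, N2.3 B or Balb/c-1 B, L1MC3 without N2.3 A, N2.3 B or Balb/c-1 C, and L1M4a1 without N2.3 C, Balb/c-1 C or Balb/c-1 D (0.0502 to 0.137).

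Most called subfamilies followed 1 host gene. In 25 of the 32 the copy with the largest difference gave at least 50 percent of it, and in 21 of these 25 that copy lay in an exon. Eulor10 (14.7, 16.8, 21.1 and 13.5 against 2.54, 0 and 2.27; 2.94, adjusted p = 0.0045) followed a 3′ UTR copy in Adamts6, a metalloprotease. Tigger6a (0.96) followed Arl14ep, Charlie16a (0.96) Fads3, Kanga1 (0.88) Smim13 and MER74A (0.68) Trim35. MamGypLTR1d (-2.75) followed Tmem8b and RLTR13B3 (-1.19) the noncoding gene Tmem181b-ps. L3b (-1.43) followed Npnt, an integrin ligand of basement membranes. L3b was at 2302 in N2.3 C and at 775 and 788 in the other N2.3 tumours. Without N2.3 C its log2 fold change was -0.91 (limma adjusted p = 0.0299). BGLII_B2 (0.88) was lost without N2.3 C (adjusted p = 0.117). Of the DNA transposon list (85 tested) 2 were higher, Tigger6a and Charlie16a, and 2 lower, Charlie12_Rodent and Charlie17, shares near the 1.49% and 1.69% over all subfamilies. With TMM 6 were higher and 1 lower, where 98 and 12 of all 1004 subfamilies were. Charlie17 was lost with TMM (adjusted p = 0.0638) and without any N2.3 tumour or Balb/c-1 B or D (0.0803 to 0.117). Of the MaLR list (91 tested) 1 was higher, ORR1B1-int (0.32, adjusted p = 0.00618), which was lost without N2.3 C (0.143). That count is below the 1.49% over all subfamilies. With TMM 14 were higher, where 98 of all 1004 subfamilies were higher. No member was called of the ETn/MusD (10 tested), MMERVK10C (12), MuLV (3), B1 (12), B2 (5), B4 (7), MIR (5), L2 (6), satellite (2) or MMTV (1) lists. With TMM, members were called higher in the B1 (4), L2 (2), MMERVK10C (1), B2 (1), B4 (1) and MIR (1) lists. These counts too are to be read beside 98 higher of all 1004 subfamilies with TMM.

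Restricted to copies outside exons, 4 of 915 subfamilies were called, 0 higher and 4 lower: RLTR6_Mm (-2.03), Charlie12_Rodent (-1.57), MERVL-int (-0.84) and RLTR6-int (-0.92), the last at 0.06 over all its copies and not called there. Charlie12_Rodent was at 122, 151, 63.4 and 102 against 355, 337 and 232 over all copies (-1.53, SE 0.30, adjusted p = 0.00232), 80.5% of the difference from a copy between genes on chromosome 10. MMVL30-int kept its size there (-1.31, adjusted p = 0.0897) but not its call.

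Of the 10 highest loci, 3 lay between genes: the IAP1-MM_I-int copy above, a B3 SINE at chr2:148805945-148806204 and a B4A SINE at chr15:77357851-77358153. The B3 copy was at 71.9, 43.3, 80.7 and 26.0 against 9.32, 0 and 0 (4.57, SE 0.94, adjusted p = 0.00521) and was called with any 1 tumour left out. The B4A copy was at 82.0, 19.4, 24.02 and 9.37 against 2.54, 0 and 0.757 (3.81, adjusted p = 0.0196), and was lost without N2.3 B, N2.3 C or Balb/c-1 A (0.0682 to 0.0868). Chosen after their values were seen, an Lx3A copy at chr4:88529463-88530390 was at 15.7 to 45.8 against 0, 5.52 and 0 (3.76), and an ETnERV-int copy at chr4:155915558-155922314 was at 0 to 2.88 against 16.7 to 33.9 (-3.63). An L1_Mur2 copy at chr11:18462940-18466462 was at 0 to 4.61 against 65.2, 56.0 and 11.4 (-4.0032). These were lost without N2.3 C (0.0594), N2.3 A (0.0559), and N2.3 A, N2.3 B or Balb/c-1 C (0.0606 to 0.085), in that order.

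Of 10 shares of signal by repeat class and by place, none passed the test after adjustment. The share between genes was 7.55%, 8.19%, 7.32% and 7.84% in Balb/c-1 and 9.65%, 9.53% and 9.25% in N2.3, with no overlap (7.72% ± 0.375 against 9.48% ± 0.208, SD, n = 4 and 3). In an exact two-sided permutation test this gave p = 0.0286, the smallest that 4 against 3 can give, and 0.19 after adjustment over 10 shares. The intron share was 20.4% ± 2.86 against 23.8% ± 2.44 (exact permutation p = 0.171). SINEs held 50.2% against 51.4% (exact permutation p = 0.0571) and LTR elements 24.97% against 24.6% (0.257).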

How the data were processed

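RNA-seq reads at annotated repeat copies were analysed in 7 of 40 libraries (Balb/c-1, n = 4, and N2.3, n = 3), with all 40 in the fits. The authors aligned and counted with HISAT2 2.0.5, StringTie 1.3.3b and featureCounts 1.5.0-p3 on mm10, per the submitters' processing notes, which give these names without roles. The deposited values are a normalised signal per repeat copy: reads divided by a factor for each library. No source used here states the repeat annotation, the handling of reads with several matches, the use of strand or how the factors were made. Unequal factors would shift all values of a library. Whole reads were recovered from the steps of the values in all 40 libraries, within a tolerance of 0.1 reads. The count tests used 39 of them, without YUMM1.7 library 2. Depths are in the report. Reads with several matches could be shared between near-identical copies.

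Copies were placed in exons, introns or between genes with bedtools 2.31.1 and a GENCODE annotation of the same build, and summed by subfamily (all copies) and host gene (exon copies). Features with a mean signal of at least 5 were tested with limma 3.58.1 in R 4.3.3 on log2(signal + 1), so fold changes of low features are understated, with 1 mean for each of 11 groups, Benjamini-Hochberg adjusted p within each level and a call under 0.05. Shares were compared with exact two-sided permutation tests over 35 arrangements. The scripts were checked on simulated data. The alternatives were TMM scaling, edgeR 4.0.16 and DESeq2 1.42.0 on recovered reads, pseudocounts of 0.5 and 5, other filters, other sets of libraries, the intron share as covariate, the tumour letter as a block, each tumour left out, and copies outside exons or in 3′ UTRs only.

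Named features are the 8 subfamilies, 10 loci and 12 host genes highest and lowest in log2 fold change among those called (for loci and genes, with groups that do not overlap), called list members and the list members with the highest means; others are said to be chosen after their values were seen. Some features that this rule names are not reported here. The members and lists were chosen with earlier results of these data known.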

Additional observations from a re-analysis of the deposited data

Results flagged for a closer look

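Of 83 named features, 11 had 1 Balb/c-1 tumour set apart from the other 3 by Dixon's criterion. That criterion flags about 1 in 20 groups by chance only where values are normally distributed. Here it was applied to signal without log transformation, so the count of 11 cannot be read against that rate. In all 11 features that tumour was the highest, but where the other 3 had no reads, only the highest could be flagged. In 6 of them, features lower in Balb/c-1, the tumour had from 1 to a few reads where the others had none: Balb/c-1 C at 0.961 (ORR1A2 copy of Lgr6), D at 3.12 (MER103C copy of Lgr6), B at 0.883 (Rragd and Epb41l3), and A at 1.84 (PB1D10 copy of Tbx3os1) and 0.921 (Naalad2). Balb/c-1 C was apart at the VL30 copy on chromosome Y, at 10.6. Balb/c-1 A was apart for Ctla2a at 176, for IAPEz-int at 20058, for the VL30 copy on chromosome 11 at 3887 and for the RLTR6_Mm copy beside it at 139. The last 2 adjoin each other and are not independent.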

How the results depend on the processing

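Loci called (732 as reported) were 4345 with no filter, 133 with the 7 libraries alone, 404 with the intron share as covariate and 313 to 732 with 1 tumour left out. Subfamilies called (32) were 110 with TMM scaling, 89 with DESeq2, 16 with the 7 libraries alone, 4 outside exons and 18 to 32 with 1 tumour left out. Host genes called (534) were 169 with the 7 libraries alone, 292 with the covariate and 188 to 460 with 1 tumour left out. Other counts stayed within 1.5 times, among them 687 loci, 36 subfamilies and 502 host genes without the repeat set of Balb/c-2. Deviations of tumours of the same letter correlated at 0.036, -0.052 and 0.026 for A, B and C. Between different letters the correlations were -0.066 to 0.051. With so few tumours these values cannot decide whether the letters pair tumours. With the letter as a replicate block, 219 loci, 27 subfamilies and 53 host genes were called, and the same 6 libraries without the block, chosen after seeing the data, gave 245, 28 and 167. Among the interferon response genes edgeR called 5 higher and 1 lower, DESeq2 7 and 1, the block 14 and 0, the same 6 libraries without it 25 and 0, and the intron share covariate 2 and 0. Outside exons the LTR share (-0.38) and the DNA transposon share (-0.11) reversed, as did the log2 fold changes of Charlie16a (-0.32), Tigger6a (-0.28), BGLII_B2 (-0.0243), MER74A (-0.06998), ORR1B1-int (-0.51), L1M4a1 (0.00865) and Charlie17 (0.22); their main values rested on exon copies. With TMM, RLTR4_MM-int (0.00547), B1_Mm (0.11) and B2_Mm2 (0.0514) reversed. Over all settings of the named features 1287 values kept direction and side of the threshold, 299 lost the call and 10 reversed. The cause was not tested for the other changes. A signal near 1 is about 1 read, so low features are limited by depth.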
